A study of Danio rerio with 8 samples.

Results

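The 6 genes described here encode enzymes that add double bonds to fatty acids or lengthen them: the desaturases fads2, scd and scdb and the elongases elovl2, elovl5 and elovl6. They were found as the probes whose platform gene symbol, updated by Entrez ID, was one of these 6. That rule gave 11 probes of the 43603 on the array and 6 of the 15548 genes with a symbol. All 11 probes were matched through their Entrez ID. Of these, 2 were of fads2 (A_15_P103127 and A_15_P104437), 2 of scd (A_15_P176621 and A_15_P209966) and 1 of scdb (A_15_P104758). The elongases had 1 probe for elovl2 (A_15_P102942), 3 for elovl5 (A_15_P101561, A_15_P132341 and A_15_P164456) and 2 for elovl6 (A_15_P108810 and A_15_P221101). Probes are numbered in that order below.

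The RNA came from zebrafish (Danio rerio) liver at water temperatures labelled 18, 26 and 34 °C. On day 28 there were 2 RNA samples at each temperature, and on day 4 there was 1, at 26 °C. No strain, sex, age or number of fish per sample is stated in the labels, which call the replicates biological, and all groups share the tissue and the extraction. The samples were joined in a loop of 8 Agilent 2-colour arrays, each comparing a Cy5-labelled (red) with a Cy3-labelled (green) sample. Because arrays that share a sample are not independent, the 8 log2 ratios of each gene were first turned into a level for each of the 7 RNA samples. A level is given on the log2 scale relative to the mean of the 7 samples, so a level cannot be compared between genes. The sources used here do not give the orientation of the deposited ratios. Cy5 over Cy3 was assumed here. That is how limma forms ratios, and each array's title puts its red sample before its green one. With that assumption, 14 of 17 measured heat-responsive genes were lower at 34 °C than at 18 °C, although heat induces many such genes. The orientation therefore stays uncertain. With the opposite orientation, every direction, count by sign and rank by signed value would turn. Sizes, counts of calls and p-values would stay.

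Desaturases and elongases work in turn on the same fatty acids in the endoplasmic reticulum. The fads2 product of zebrafish inserts double bonds near the carboxyl end of polyunsaturated fatty acids, and elovl5 and elovl2 lengthen those acids on the way to eicosapentaenoic and docosahexaenoic acid, elovl2 acting on the longer substrates. The elovl6 product extends palmitate to stearate, and the stearoyl-CoA desaturases scd and scdb turn such saturated acids into monounsaturated ones. Liver is a main site of these reactions. Fish adjust the unsaturation of their membranes to temperature, and in carp liver the cold raises stearoyl-CoA desaturase.

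On the Cy5 over Cy3 reading, liver at 34 °C had more fads2, elovl2 and elovl6 RNA than liver at 18 °C on day 28. The genes scd, scdb and elovl5 did not pass the test. The fitted changes of the 3 genes that rose were 10.6-fold for fads2, 15.1-fold for elovl2 and 5.32-fold for elovl6. Both 34 °C samples lay above both 18 °C samples by 2.82 for fads2, 3.18 for elovl2 and 2.21 for elovl6 on the log2 scale. Those of elovl5 and scd, which did not pass, also lay apart, by 0.23 and 0.07. How many of all features lay apart in this way was not counted. The test was limma's moderated test on the sample levels, with Benjamini-Hochberg adjustment over all 35434 features (genes, and unnamed probes singly) and a threshold of 0.05. Over all features it called 348 (0.982%), 172 upward and 176 downward, and 3 of the 6 genes were among them.

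**Figure D1:**
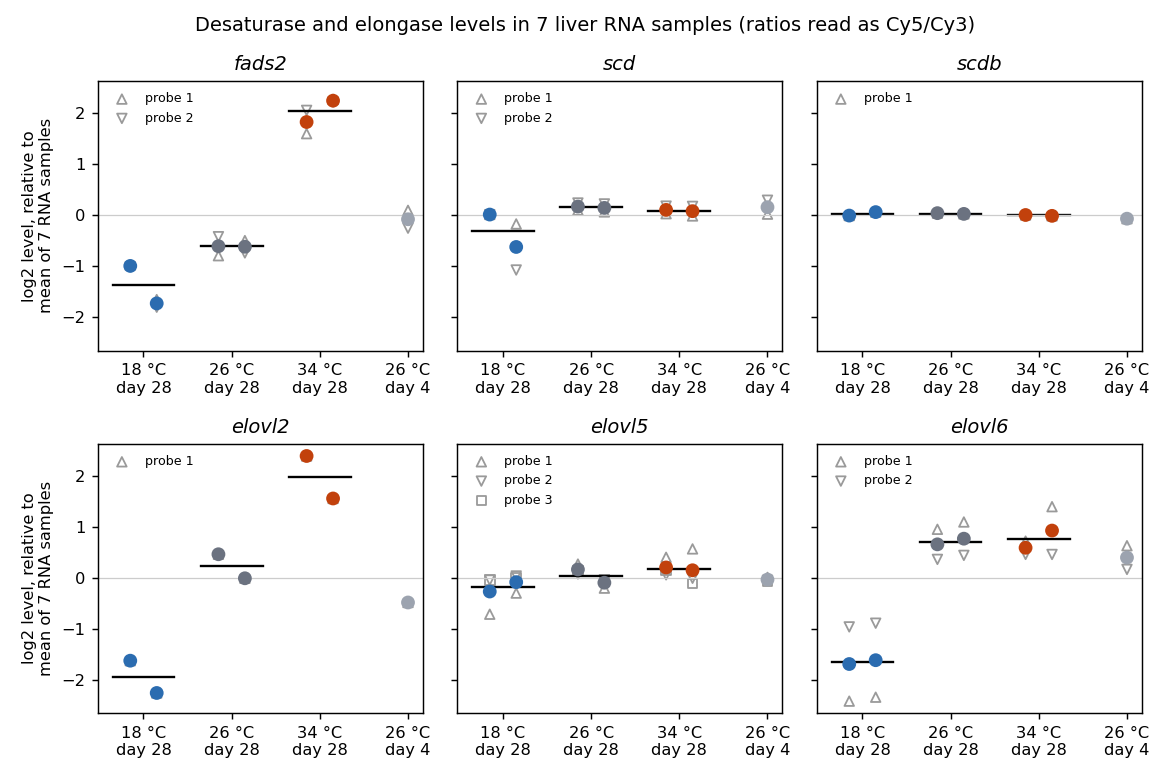
Level of each of the 6 genes in the 7 liver RNA samples (log2, relative to the mean of the 7). Filled circles are means of a gene's probes, open symbols are single probes and black bars are means of the 2 replicates. The 34 °C samples stand high for fads2 (1.82 and 2.24) and elovl2 (2.39 and 1.55), the 18 °C samples stand low for elovl6 (-1.70 and -1.62), and scdb stays within 0.1 of 0.

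These calls rest on few samples. Calls fell when any 1 RNA sample was left out, both among the 6 genes and over all features. The losses were thus not particular to these genes. Leaving out a day 28 sample leaves 1 sample in its group, so only sizes are given for those fits. Without the day 4 sample limma called fads2 and elovl6, among 72 features in all (348 in the main fit). The sizes moved less, to between 3.04 and 3.78 for fads2, 3.50 and 4.33 for elovl2 and 2.23 and 2.65 for elovl6 on the log2 scale.

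Among all features, the array medians lay between -0.000725 and 0.00385, and 43.2% to 82.8% of the probes of an array had a log2 ratio within 0.1 of 0. The 2 replicates of a temperature deviated from the mean of the 7 samples with a correlation of 0.404 at 18 °C, -0.0269 at 26 °C and 0.462 at 34 °C over all features. On the Cy5 over Cy3 reading, 14 of 17 measured heat-responsive chaperones and heat shock genes were lower at 34 than at 18 °C. Heat is known to induce many such genes. The list also holds constitutive and endoplasmic reticulum chaperones, however, and the samples compared are of day 28. Over all features, 50.6% of the changes were positive. The endoplasmic reticulum chaperone hsp90b1 fell by 1.40 ± 0.14 on the log2 scale (SE, limma adjusted p = 0.0422), the only one of the 17 to pass. The collagen chaperone serpinh1b and the endoplasmic reticulum chaperone hspa5 had log2 changes of -0.66 ± 0.09 and -1.07 ± 0.54, and the constitutive chaperone hspa8 had 1.03 ± 0.36. The heat-inducible hsp70.3, hsp90aa1.2 and dnajb1b, named after their values were seen, were at -2.14 ± 0.39, -1.51 ± 0.29 and -1.29 ± 0.20, with limma adjusted p between 0.0752 and 0.103. Of 6 measured cold-responsive genes 3 had positive values and 0 passed the limma test (2 at an unadjusted p below 0.05). The cold-inducible RNA-binding genes cirbpa and cirbpb were at 0.995 ± 0.32 and 0.63 ± 0.36, thus higher at the warmer temperature on this reading. The chromatin protein gene hmgb1a was at 2.99 ± 0.35 (limma adjusted p = 0.05004). The other 3 were hmgb2b at -0.39 ± 0.30, hmgb2a at -0.35 ± 0.16 and hmgb1b at -0.01 ± 0.18, also named after their values were seen. These values were not used to set the direction, which they leave uncertain.

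Marker genes of the cell types that a liver sample could hold were set beside these values. Between 34 °C and 18 °C, 21 of 22 hepatocyte markers had positive log2 changes, with a median of 1.51 and a highest value of 2.71, and 1 was called. All 23 oocyte markers had negative ones, with a median of -2.28 and a lowest value of -4.01, and 7 were called. Of 18 exocrine pancreas markers 16 had positive values, with a median of 1.76, and 0 passed (4 at an unadjusted p below 0.05). The summed level of the hepatocyte markers was 26.5 and 10.4 in the 34 °C samples, against -9.60 and -20.4 in the 18 °C samples. For the oocyte markers the sums were -25.3 and -18.7 in the 34 °C samples, against 16.6 and 31.3 in the 18 °C samples. The exocrine pancreas sums were 16.8 and 8.29 in the 34 °C samples, against -24.6 and -7.86 in the 18 °C samples. Intestine markers were positive in 6 of 8 with a median of 0.52. Ratios carry no absolute level, so whether a defining marker is absent from these samples cannot be read. In bulk RNA, fewer cells of a type and less RNA per cell cannot be told apart. The part of cell make-up in the changes of the 6 genes was not tested. The fits with marker covariates given below cannot tell it apart from temperature, since the marker levels themselves differed between the temperatures.

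The desaturase fads2 was highest at 34 °C. Its level was -1.001 and -1.74 in the 18 °C samples, -0.61 and -0.62 in the 26 °C samples of day 28, 1.82 and 2.24 in the 34 °C samples and -0.09 in the day 4 sample. The 2 samples at 34 °C thus stood apart from the other 5. The 26 °C samples of day 28 differed by only 0.01 in the mean of the probes. By probe, 26 °C replicates 1 and 2 were at -0.80 and -0.50 (probe 1) and at -0.43 and -0.75 (probe 2). The 2 fads2 probes thus ordered these replicates in opposite ways. Over the 7 samples they had a correlation of 0.982 and a slope of 1.06. The probes' own changes at 34 °C against 18 °C were 3.25 and 3.55.

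The rise of fads2 at 34 °C against 18 °C was 3.40 ± 0.28 on the log2 scale (SE, n = 2 samples each, limma adjusted p = 0.0386). It ranked 7th from the highest among the 35434 features. In the single-probe fit of all 43603 probes, limma's adjusted p was 0.0519 for probe 1 and 0.0469 for probe 2. Against 26 °C on day 28 the value at 34 °C was 2.65 ± 0.28, the 13th highest of all features, with a limma adjusted p of 0.180. At 18 °C against 26 °C it was -0.75 ± 0.28 (limma adjusted p = 1.00), and it moved to -1.12 without 18 °C replicate 1 and to -0.36 without 18 °C replicate 2. The value over the upper temperature step was the larger of the pair in size with and without either sample.

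The deposited arrays show these values before any model. On the array that set a 34 °C sample directly against an 18 °C sample, fads2 had a log2 ratio of 3.13, averaged over its probes. On the 3 arrays of a 34 °C against a 26 °C day 28 sample it had 2.25, 2.06 and 3.17, written as warmer over cooler. The 2 arrays of an 18 °C against a 26 °C sample, both with 18 °C replicate 2, gave 0.94 and 1.298 as warmer over cooler. All 6 arrays of day 28 thus pointed the same way for fads2, whichever dye the warmer sample carried. The fitted dye term of fads2 was 0.27. The ratio of 3.17 came from 34 °C replicate 2 labelled red, and those of 2.25 and 2.06 from 34 °C replicate 1 labelled green, so dye and sample both differ between them. On the arrays of the day 4 sample, fads2 was at -0.61 for 18 °C replicate 1 over day 4 and at -2.02 for day 4 over 34 °C replicate 2.

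**Figure D2:**
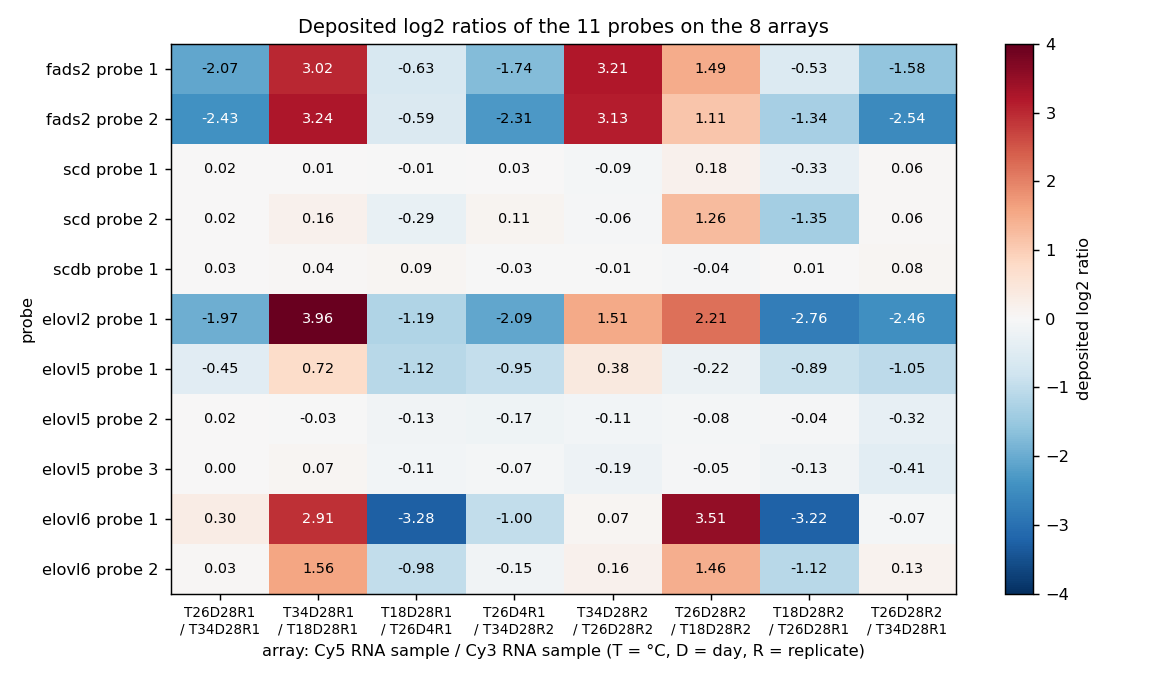
Deposited ratios, read as log2, of the 11 probes (rows) on the 8 arrays (columns, named by the Cy5 sample over the Cy3 sample). The colour scale runs from -4 to 4. The fads2 and elovl2 probes turn sign with the dye carried by the warmer sample. The elovl6 probes do so on the arrays with an 18 °C sample. On the 3 day 28 arrays of 34 and 26 °C the elovl6 probes lie between -0.07 and 0.30. On the array of the day 4 sample over 34 °C replicate 2, elovl6 probe 1 is at -0.997 and probe 2 at -0.15. The scdb probe and elovl5 probes 2 and 3 stay nearer 0, the furthest being -0.41 for elovl5 probe 3.

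The stearoyl-CoA desaturases did not pass the test in any comparison. The level of scd was 0.01 and -0.63 in the 18 °C samples, 0.16 and 0.14 in the 26 °C samples of day 28, 0.10 and 0.07 in the 34 °C samples and 0.15 in the day 4 sample. Only 18 °C replicate 2 stood low, and 18 °C replicate 1 lay within 0.2 of all the others. That low value came mainly from probe 2, at -1.08 in 18 °C replicate 2 and 0.01 in 18 °C replicate 1, while probe 1 was at -0.18 and 0.01 in those samples. It was seen on both arrays of that sample, with scd at 0.84 and 0.72 as warmer over cooler. On the array of 34 °C replicate 1 over 18 °C replicate 1, scd was at 0.08.

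The scd change at 34 °C against 18 °C was 0.40 ± 0.21 (95% interval -0.16 to 0.96, limma adjusted p = 0.586). Without 18 °C replicate 2 it was 0.08, and without 18 °C replicate 1 it was 0.72. At 18 °C against 26 °C it was -0.46 ± 0.21, with an interval of -1.02 to 0.10. Between 34 °C and 26 °C it was -0.06 ± 0.21, with an interval of -0.62 to 0.49.

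The paralogue scdb was flat. Its level was -0.01 and 0.05 in the 18 °C samples, 0.03 and 0.02 in the 26 °C samples of day 28, -0.0020 and -0.02 in the 34 °C samples and -0.07 in the day 4 sample. The groups overlapped at 34 °C against 18 °C, where the change was -0.03 ± 0.04 (95% interval -0.14 to 0.08, limma adjusted p = 0.890). Its single probe kept within 0.1 of 0 on all 8 arrays. The table holds no channel intensities, so a probe near background could not be told from an unchanged gene.

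Among the elongases, elovl2 had levels over the widest range of the 6 genes. Its level was -1.63 and -2.26 in the 18 °C samples, 0.46 and -0.01 in the 26 °C samples of day 28, 2.39 and 1.55 in the 34 °C samples and -0.49 in the day 4 sample. The 3 temperatures did not overlap, with the 18 °C samples lowest and the 34 °C samples highest. How many of all features lay apart in this way was not counted, for this or any other gene here. With 2 samples a group, even the flat scdb lay apart at 34 °C against 26 °C, by 0.02. The ratios of its single probe closed around the loop with a residual SD of 0.02, against 0.20 for fads2.

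Its rise at 34 °C against 18 °C was 3.91 ± 0.38 (SE, n = 2 samples each, limma adjusted p = 0.0414), the third highest value of all features. In the fit of single probes its limma adjusted p was 0.0509, just short of the threshold. The 34 °C samples against those at 26 °C gave 1.75 ± 0.38 (limma adjusted p = 0.305) and the 18 °C samples against those at 26 °C gave -2.17 ± 0.38 (limma adjusted p = 0.507), the 9th lowest of all features. The 95% intervals of these sizes overlapped. When array scales were made equal before the fit, the same values were 1.07 and -3.68, so the balance of the steps depended on that choice. The array of a 34 °C over an 18 °C sample gave 3.96. On day 28, the 3 arrays of 34 °C and 26 °C samples gave 1.97, 2.46 and 1.51, as warmer over cooler. The 2 day 28 arrays of 26 °C and 18 °C samples gave 2.76 and 2.21. All 6 arrays of day 28 again pointed one way.

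The elongase of saturated fatty acids, elovl6, was low at 18 °C and level between 26 and 34 °C. Its level was -1.70 and -1.62 in the 18 °C samples, 0.65 and 0.76 in the 26 °C samples of day 28, 0.58 and 0.92 in the 34 °C samples and 0.39 in the day 4 sample. The 2 samples at 18 °C stood more than 2 below the other 5, whose levels spanned 0.39 to 0.92. The 34 °C and 26 °C samples overlapped.

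Against 18 °C, elovl6 at 34 °C rose by 2.41 ± 0.12 (SE, n = 2 samples each, limma adjusted p = 0.0272), the 90th highest value and the smallest p of the 6 genes. At 18 °C against 26 °C its value was -2.37 ± 0.12, the 5th lowest and the third smallest p of all features, with a limma adjusted p of 0.168. Between 34 °C and 26 °C it was 0.05 ± 0.12 (95% interval -0.28 to 0.37, limma adjusted p = 0.973). The direct arrays showed the same split. As warmer over cooler on day 28, elovl6 had 2.24 on the array of 34 and 18 °C and 2.17 and 2.48 on those of 26 and 18 °C. It had -0.17, -0.03 and 0.12 on the day 28 arrays of 34 and 26 °C. The array of 34 °C replicate 2 with the 26 °C day 4 sample gave a larger 0.57, also as warmer over cooler. Leaving out 1 array moved the fitted value at 34 °C against 26 °C to between -0.03 and 0.70.

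The 2 elovl6 probes moved together with a correlation of 0.991 over the 7 samples but differed in size, with a slope of 0.387 of probe 2 on probe 1. Between 34 °C and 18 °C probe 1 changed by 3.44 and probe 2 by 1.38, and limma's adjusted p in the single-probe fit was 0.0424 and 0.0246. The fold given for elovl6 is therefore an average of probes that disagree about its size. On the array of 18 °C replicate 2 over 26 °C replicate 1, probe 1 had the 4th lowest ratio of all 43603 probes.

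The third elongase, elovl5, gave probes that disagree. As a mean of its 3 probes, its level was -0.27 and -0.09 in the 18 °C samples, 0.16 and -0.10 in the 26 °C samples of day 28, 0.20 and 0.14 in the 34 °C samples and -0.04 in the day 4 sample. The gene was at 0.35 ± 0.11 at 34 °C against 18 °C (95% interval 0.06 to 0.65, limma adjusted p = 0.262). Probe 1 alone had 0.99 ± 0.22 (limma adjusted p = 0.150 in the single-probe fit), and probes 2 and 3 had 0.03 and 0.04. Probe 1 lay at -0.72 and -0.30 in the 18 °C samples, 0.27 and -0.21 in the 26 °C samples of day 28 and 0.40 and 0.56 in the 34 °C samples. Its 34 °C samples stood above its 18 °C samples by 0.70, while those of probes 2 and 3 overlapped. The correlation of probe 1 with probes 2 and 3 over the 7 samples was 0.482 and 0.269.

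The comparisons with 26 °C called almost nothing in the table as a whole. At 34 °C against 26 °C on day 28, limma called 0 of 35434 features (0%), with 3114 at an unadjusted p below 0.05, and 0 of the 6 genes. At 18 °C against 26 °C it called 1 (0.00282%), with 1570 at an unadjusted p below 0.05, and 0 of the 6 genes. With arrays taken as replicates, which ignores that they share samples, limma called fads2 (2.42, adjusted p = 0.00980) and elovl2 (1.79, adjusted p = 0.0220) at 34 °C against 26 °C among 1372 features. In that fit it called elovl6 (-2.36, adjusted p = 0.0228) at 18 °C against 26 °C among 29 features.

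The sizes of the temperature steps were compared directly, as the change from 26 to 34 °C minus the change from 18 to 26 °C. This difference was 1.90 ± 0.49 for fads2, -0.42 ± 0.66 for elovl2 and -2.32 ± 0.22 for elovl6. The limma adjusted p was 1.00 for fads2 and elovl2 and 0.740 for elovl6, and 0 of 35434 features (0%) passed, with 1046 at an unadjusted p below 0.05. Among all features the elovl6 difference was the 10th lowest and the fads2 difference the 78th highest. The larger value of fads2 over the upper step and of elovl6 over the lower one thus did not pass the test of the difference. When array scales were made equal before the fit, the step difference was 1.14 for fads2 and -2.61 for elovl2, and elovl6 at 34 °C against 26 °C turned to -0.52.

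**Figure D3:**
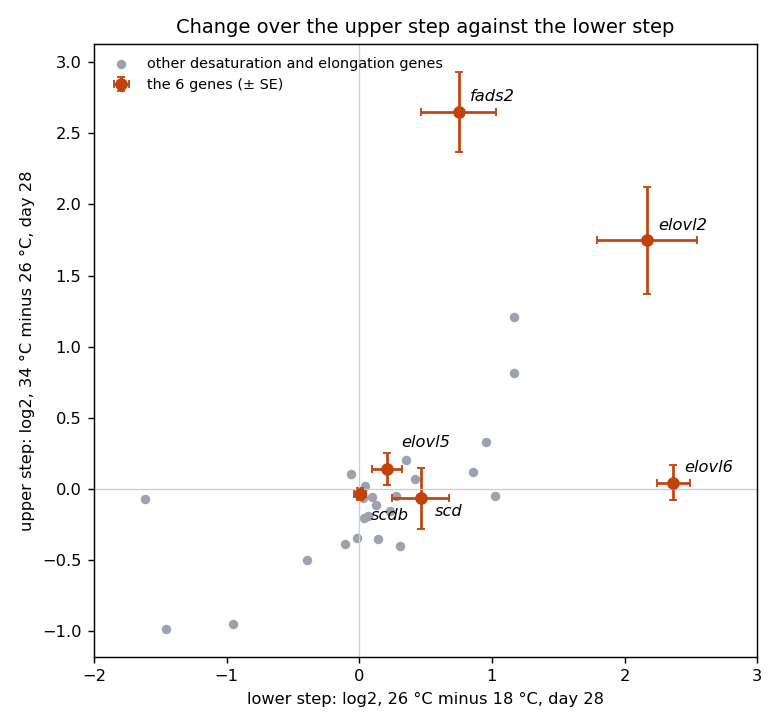
Change over the upper temperature step (y axis, 34 °C minus 26 °C, log2) against change over the lower step (x axis, 26 °C minus 18 °C, log2) on day 28. Orange points with SE bars are the 6 genes and grey points the other measured desaturation and elongation genes. The fads2 point lies at the top (2.65), elovl6 lies far right at 0.05, and elovl2 lies far along both axes.

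At 26 °C, day 28 was set against the lone day 4 sample, which has no replicate and was assumed to vary like the others. The changes were -0.53 ± 0.34 for fads2, 0.71 ± 0.46 for elovl2 and 0.31 ± 0.15 for elovl6. The limma adjusted p lay between 0.645 and 0.999 for the 6 genes, and 0 of 35434 features (0%) passed, with 2384 at an unadjusted p below 0.05. The remaining values were 0.07 ± 0.14 for elovl5, -0.00053 ± 0.26 for scd and 0.10 ± 0.05 for scdb. The day 4 sample lay outside the 2 samples of day 28 by 0.53 for fads2, 0.47 for elovl2, 0.26 for elovl6 and 0.09 for scdb. It lay between them for elovl5 and scd. How often this happens among all features was not counted.

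Set beside the cell markers, fads2 (3.40) and elovl2 (3.91) lay above the highest of the 22 hepatocyte markers (2.71) at 34 °C against 18 °C, and elovl6 (2.41) lay below it. At 34 °C against 26 °C, fads2 (2.65) lay above the highest hepatocyte marker (2.21), whose list had a median of 0.84, and elovl2 (1.75) did not. At 18 °C against 26 °C, elovl2 (-2.17) and elovl6 (-2.37) lay below the lowest hepatocyte marker (-1.97), while fads2 was at -0.75 beside a list median of -0.66. The oocyte markers had medians of -1.09 at 34 °C against 26 °C and 0.93 at 18 °C against 26 °C. The exocrine pancreas medians there were 1.00 and -0.57, and that list stood far apart between the 26 °C replicates of day 28, at a median level of 0.78 in replicate 1 and -1.304 in replicate 2. In those replicates elovl2 was at 0.46 and -0.01, fads2 at -0.61 and -0.62 and elovl6 at 0.65 and 0.76. Whether these levels follow the pancreas markers was not tested.

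The median level of a marker list was also used as a covariate at 34 °C against 18 °C. With the hepatocyte median, the log2 changes were 3.53 ± 0.78 for fads2, 2.15 ± 0.25 for elovl2 and 2.97 ± 0.11 for elovl6. With the oocyte median they were 2.21 ± 0.91, 1.69 ± 0.89 and 2.91 ± 0.41 in the same order. With the exocrine pancreas median they were 3.67 ± 0.37, 3.74 ± 0.55 and 2.49 ± 0.18. Limma called 0 of the 6 genes and 0 features in all with any of these covariates, each of which takes 1 of 3 residual degrees of freedom. The smallest adjusted p among fads2, elovl2 and elovl6 was then 0.143. Of the 3 sizes, that of elovl2 moved most between covariates, but whether it moved more than the others beyond these SEs was not tested.

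**Figure D4:**
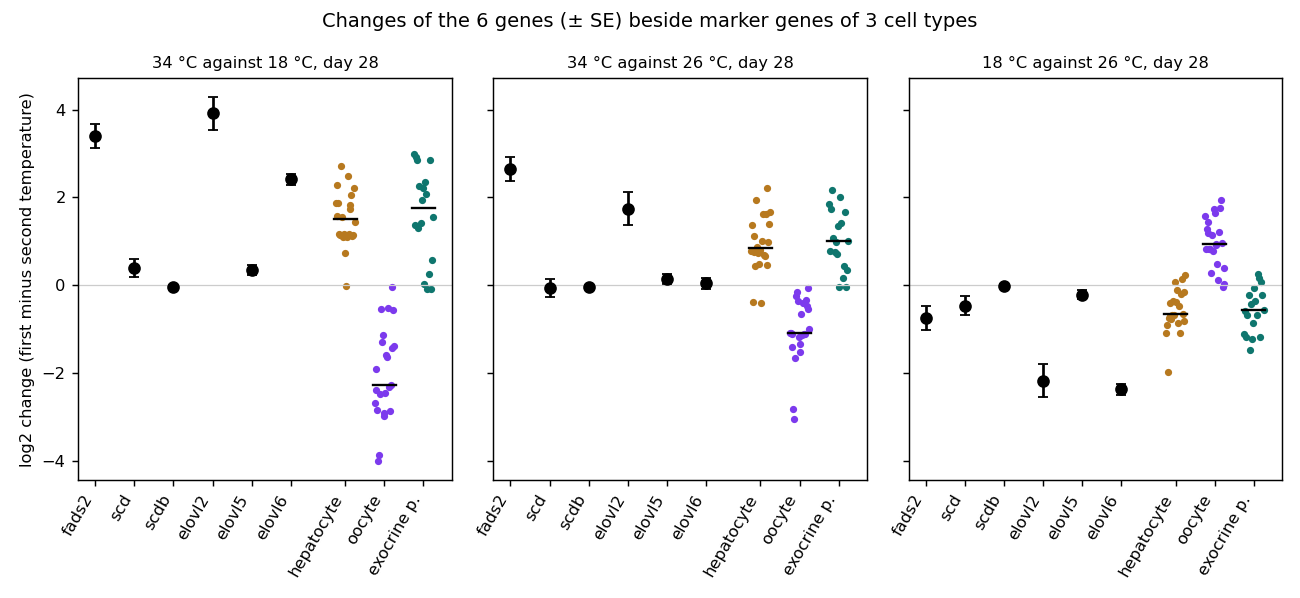
Log2 changes of the 6 genes (black, ± SE) beside those of the single marker genes of hepatocytes, oocytes and exocrine pancreas (coloured points, bar at the median) in 3 comparisons of day 28. At 34 °C against 18 °C the hepatocyte markers spread around 1.51, the oocyte markers around -2.28 and the exocrine pancreas markers around 1.76, with fads2 at 3.40 and elovl2 at 3.91.

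Of 31 genes of desaturation and elongation 30 were measured, and the 3 that passed at 34 °C against 18 °C were fads2, elovl2 and elovl6. The list's median change was 0.05, with 18 positive and 12 negative values, beside 0.00086 over all features. The highest value that did not pass was that of hacd2, whose product removes water in the elongation cycle, at 2.37 ± 0.31 (limma adjusted p = 0.0585). Its level was -0.84 and -1.53 in the 18 °C samples, -0.16 and 0.12 in the 26 °C samples of day 28 and 1.47 and 0.91 in the 34 °C samples. The electron donor of desaturases, cyb5a, was at 1.98 ± 0.41. The lowest values were those of the elongase gene elovl7a at -2.44 ± 0.47 (limma adjusted p = 0.105) and the elongation-cycle reductase gene hsd17b12a, at -1.898 ± 0.55. An elongase related to elovl6, elovl6l, chosen after its value was seen, was at -1.69 ± 0.38 and thus opposite in sign to elovl6, with a limma adjusted p of 0.140. Relatives within the elongation machinery therefore had values of both signs.

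**Figure D5:**
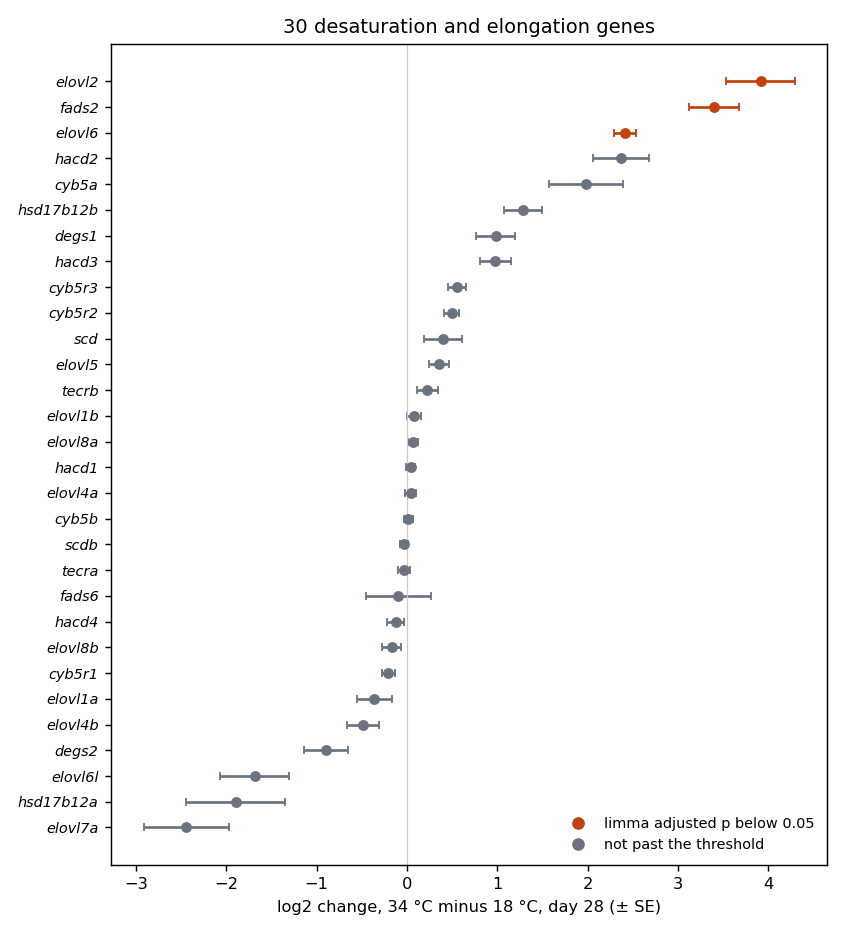
Log2 changes (± SE) at 34 °C against 18 °C on day 28 of the 30 measured desaturation and elongation genes, ordered by size. Orange marks a limma adjusted p below 0.05: elovl2 (3.91), fads2 (3.40) and elovl6 (2.41) lead the list, and elovl7a (-2.44) lies lowest.

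Neighbouring steps of fatty acid metabolism were read against the 0.982% of all features called at 34 °C against 18 °C. Among 15 measured genes of fatty acid synthesis and its regulators, 12 had positive values and 1 passed at 34 °C against 18 °C, with a list median of 0.06. This was nr1h3, the liver X receptor that activates lipogenic genes in mammals, at 0.66 ± 0.07 (limma adjusted p = 0.0428). The liver transcription factor gene hnf4a was at 1.18 ± 0.17 and the acetyl-CoA carboxylase gene acaca, which commits carbon to fatty acid synthesis, at 0.75 ± 0.22. The lowest values were -0.20 ± 0.06 for acacb and -0.09 ± 0.09 for rxrab.

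Among 16 measured genes that activate fatty acids to their CoA esters, 10 had positive values and 1 passed, with a list median of 0.12. This was acsl4a, whose mammalian counterpart prefers arachidonic acid, at 2.29 ± 0.24 (limma adjusted p = 0.0440). Its level was -1.001 and -1.63 in the 18 °C samples and 1.01 and 0.93 in the 34 °C samples. The next largest was acsbg1 at 1.04 ± 0.37, and the lowest were acsl4b at -0.33 ± 0.07 and acsl6 at -0.15 ± 0.13.

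Peroxisomes shorten the very long polyunsaturated acids that elongation yields, a step by which docosahexaenoic acid is completed in mammals. Of 14 measured genes of that process, 12 had positive values at 34 °C against 18 °C and 3 passed, with a list median of 0.79 and 0.982% of all features called. The peroxisomal transporter gene abcd3a rose by 3.05 ± 0.28 (limma adjusted p = 0.0408), the thiolase gene acaa1 by 1.81 ± 0.20 (limma adjusted p = 0.0471) and the bifunctional enzyme gene ehhadh by 1.55 ± 0.13 (limma adjusted p = 0.0387). The sterol carrier and thiolase gene scp2a was at 2.099 ± 0.27 (limma adjusted p = 0.0562), and amacr (-0.09 ± 0.07) and abcd3b (-0.05 ± 0.10) were lowest. In the same comparison the 22 hepatocyte markers had a median of 1.51, with 1 called. In the comparisons with 26 °C, 0 genes of these 4 lists passed limma's test, and 4 of 30 desaturation and elongation genes at 34 °C and 14 of 30 at 18 °C had an unadjusted p below 0.05. Over all features that share was 8.79% at 34 °C and 4.43% at 18 °C, each against 26 °C. For the synthesis, activation and peroxisomal lists the counts were 3 of 15, 3 of 16 and 7 of 14 at 34 °C. At 18 °C they were 3 of 15, 2 of 16 and 3 of 14. The hepatocyte, oocyte and exocrine pancreas markers had 9 of 22, 15 of 23 and 0 of 18 at 34 °C. At 18 °C these markers had 4 of 22, 12 of 23 and 0 of 18.

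The genes whose levels over the 7 samples ran most like those of fads2, elovl2 and elovl6 were taken from 1388 named genes with an SD of levels of at least 0.5. These correlations are descriptions over 7 points that share arrays and come from 4 groups. Closest to fads2 were ehhadh (r = 0.992), rpl35 (0.990), eif3d (0.984), serpinf2b (0.984) and selenou1a (0.981). Closest to elovl2 were ND2 (0.996), pbldp (0.993), apoa4b.1 (0.992), cldn15lb (0.989) and cdh2 (0.989). For elovl6 they were mid1ip1b (0.971), fabp7a (0.967), aldh16a1 (0.966), cmlc1 (0.965) and ckmt1 (0.957). The lists of 5 shared no gene.

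The gene mid1ip1b, whose mammalian product assembles acetyl-CoA carboxylase, was picked for its likeness to elovl6. Its levels were lowest at 18 °C, as those of elovl6 were. They were -1.10 and -1.55 in the 18 °C samples. In the 26 °C samples of day 28 they were 0.27 and 0.62, and in the 34 °C samples 0.70 and 0.91. The 26 and 34 °C samples of mid1ip1b did not overlap, while those of elovl6 did. The levels of ehhadh, picked for its likeness to fads2, were -0.47 and -0.79 in the 18 °C samples. They were -0.43 and -0.26 in the 26 °C samples of day 28 and 0.86 and 0.98 in the 34 °C samples. Among the 6 genes themselves, the correlation over the 7 samples was 0.898 for fads2 with elovl2, 0.826 for elovl2 with elovl6 and 0.663 for fads2 with elovl6. It was between -0.545 and 0.0467 for scdb with the other 5.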

How the data were processed

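For every probe the authors deposited a normalized log2 ratio on each array, and the submitters' processing notes name limma. The sources used here do not give the background correction, normalization, spot filters or log base. Log2 was assumed, since values lie between -8.96 and 8.03, while log10 ratios from a 16-bit scanner stay below 4.82. That range bears on log10 only, and every fold given depends on the base. Per the labels, RNA was extracted with Trizol. Coordinates are left out because no source names the array's genome build.

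Symbols were updated from a RefSeq gene table (GRCz12tu), by Entrez ID for 23534 probes and by accession for 42. Another 141 kept the platform symbol, and in all 23717 probes (54.4%) had 1 symbol. Probes of a symbol were averaged. Least squares on the 7 samples and a dye term left 1 residual degree of freedom. Then limma (3.58.1, R 4.3.3; lmFit and eBayes, two-sided) compared 4 groups, with 3 residual and 1.63 prior degrees of freedom. Errors given as ± are its moderated SEs. Errors shared through arrays are ignored, and the number of arrays limits the precision. The steps were also run on simulated data. Their array noise was set below the residual SD of fads2 (0.20) and elovl6 (0.24), so that run does not measure the error rate here. Same-numbered samples of different temperatures had deviations that correlated at -0.151, -0.133 and 0.415, so the numbers were not taken as pairs.

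The genes and lists were chosen with earlier results of these data known. Named were all 6 genes, listed pathway genes that passed on day 28, otherwise the 2 highest and 2 lowest at 34 °C against 18 °C, the 5 most alike genes and 7 temperature genes.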

Additional observations from a re-analysis of the deposited data

How the results depend on the processing

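At 34 °C against 18 °C, 3 of the 6 genes were called, and 3 also with arrays as replicates, the median of probes, no dye term, robust eBayes, flat features left out, or without the array of 26 °C replicate 2 over 34 °C replicate 1. The count was 2 with single probes, and 0 with scale normalization, with only the compared groups in the fit, and with the oocyte, hepatocyte or exocrine pancreas covariate. It was lower without any 1 RNA sample, at 2 without the day 4 sample, where 72 features were called. Without each of the other 7 arrays it was 0, with 0 to 15 features called in all, the cause of which was not tested. With the replicate block it was 2, fads2 being lost (limma adjusted p = 0.0664), and 237 features were called. The block changed no other call of the 6 genes. Calls of all features, 348 in the main fit, ranged from 0 to 2994 over the 27 alternatives. They numbered 2994 with arrays as replicates, 1139 with flat features left out (SD under 0.1) and 226 with single probes. With scale normalization, with only the compared groups and with each covariate they were 0. With arrays as replicates, 2 of the 6 genes were called at 34 °C against 26 °C and 1 at 18 °C against 26 °C, and 0 with any other alternative. Signs of fads2, elovl2 and elovl6 at 34 °C against 18 °C held under all alternatives, at 2.21 to 3.78, 1.69 to 4.75 and 1.38 to 3.44.

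Signs that turned belonged to values that had not passed. At 34 °C against 18 °C, scd was -1.01 with the oocyte and -0.0052 with the hepatocyte covariate. There scdb was 0.099 with the oocyte covariate, between -0.061 and 0.0056 without an RNA sample, 0.054 without either array of the day 4 sample and 0.017 without that of 26 °C replicate 2 over 18 °C replicate 2. At 34 °C against 26 °C, elovl5 lay between -0.020 and 0.31 without an RNA sample and was -0.032 by probe 3. There elovl6 was -0.0023 with arrays as replicates, -0.52 with scale normalization, between -0.10 and 0.28 without an RNA sample and -0.026 without each of 6 arrays. It was 0.26 without the array of 26 °C replicate 1 over 34 °C replicate 1. Without that of 34 °C replicate 2 over 26 °C replicate 2 it was 0.70. There too, scd was 0.040 with the exocrine pancreas and scdb 0.021 with the oocyte covariate. At 18 °C against 26 °C, scd was 0.31 with the oocyte covariate. There scdb was 0.0058 with arrays as replicates, 0.013 with scale normalization, 0.0063 with the exocrine pancreas covariate, between -0.032 and 0.028 without an RNA sample and 0.11, 0.039 and 0.0069 without 1 of 3 arrays. At 26 °C on day 28 against day 4, elovl6 was -0.47 and fads2 0.10 without either array of 34 °C replicate 2 with the day 4 or a 26 °C sample. The step difference of elovl2 lay between -0.90 and 0.051 without an RNA sample.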
